A study of Drosophila melanogaster with 4 samples.

Results

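The vacuolar proton ATPase (V-ATPase) genes were taken as every gene of the count matrices whose symbol starts with Vha, which gave 32 of 13955 genes. They were measured by single-nucleus RNA sequencing of the abdominal cuticle and the tissue attached to it, from adult male Drosophila melanogaster. There were 2 libraries of oenots>tsc1,tsc2 flies in the w1118 background, which carried UAS-Tsc1 and UAS-Tsc2 over + and overexpress these tuberous sclerosis genes, and 2 control libraries of oenots>EGFP flies, also w1118, with UAS-2xEGFP over + in their place. All flies carried 1 copy of the oenocyte driver PromE-GAl4 with tub-Gal80ts, a temperature-sensitive repressor that holds it off at 18 °C, and were moved to 29 °C for 4 days. Each library pooled 40 abdomens, so a replicate is a pool and not a single fly. The study calls the control pools biological replicates, sequenced in independent rounds, and does not say whether the pools were reared apart from each other. It states that the oenots>tsc1,tsc2 flies were raised under the same conditions as the controls. The transgenes act in oenocytes, the hepatocyte-like cells under the cuticle, so that values in adipose tissue and muscle are those of cells the driver was not meant for. The study states that this driver is active in the male accessory glands too. Guts and male reproductive organs were removed at dissection, yet clusters with their markers are present. Tsc1 and gig, the fly Tsc2, were not analysed here, so the expression of the transgenes was not checked.

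The V-ATPase is a rotary pump that spends ATP to move protons across membranes. Its soluble V1 sector hydrolyses ATP at a ring of A and B subunits and drives a central stalk (D and F), while E, G, C and H form the outer stalks and the link to the membrane. Its V0 sector holds the rotating ring of c and c″ subunits, subunit a, which lines the path of the protons, and the small subunits d and e. The pump acidifies lysosomes in every cell, and the lysosomal pump is part of the platform on which amino acids activate TOR, the kinase that the Tsc1 and Tsc2 proteins hold down. In the Malpighian tubule, the renal organ of insects, it sits in the apical membrane and energises fluid secretion. The fly genome holds several copies of many subunits, and many of the extra copies are best known from the testis.

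Of the 32 genes, 13 encode V1 subunits, 18 encode V0 subunits, and VhaAC45 encodes the accessory protein Ac45. For each of the 13 subunits the copy known from broad expression was taken as core: Vha68-2 (A), Vha55 (B), Vha44 (C), Vha36-1 (D), Vha26 (E), Vha14-1 (F), Vha13 (G), VhaSFD (H), Vha100-2 (a), Vha16-1 (c), VhaPPA1-1 (c″), VhaAC39-1 (d) and VhaM9.7-b (e). The other 18 subunit genes are called paralogues. The nuclei held 12601994 UMIs (unique molecular identifiers, each standing for 1 captured transcript) over 25141 nuclei, and the Vha genes gave 26455 of them, or 0.210%. The core genes supplied 22912 of these, or 86.6%, and the paralogues 2585. In all, 31 genes had a UMI, VhaM9.7-c had none, and 14 genes had between 0 and 68 UMIs over all libraries. The Vha share of UMIs was 0.232% and 0.192% in oenots>tsc1,tsc2 libraries 1 and 2, and 0.232% and 0.176% in oenots>EGFP libraries 1 and 2.

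The oenots>tsc1,tsc2 libraries had 7594 and 2267 nuclei with 3972281 and 1449112 UMIs, and the oenots>EGFP libraries 7213 and 8067 nuclei with 3256566 and 3924035 UMIs. A nucleus held a median of 372 to 468 UMIs, too few to give the level of a Vha gene in a single nucleus, so levels below are counts summed over nuclei and given as CPM (counts per 1000000 UMIs). Intervals are exact 95% Poisson intervals, and cover counting error only. Any 2 libraries shared 15 to 77 cell barcodes. Coordinates are those of Release 6 of the fly genome, in which 6 of the 32 genes overlap another counted gene, among them Vha44 (opposite Hmgs) and Vha100-2 (opposite Vti1b). Cell Ranger, with which the reads were counted, takes only reads in the sense direction of a gene, so overlaps of genes on opposite strands are told apart by strand. VhaM9.7-c overlaps Teh2 on the same strand, where strand cannot tell reads apart, so its lack of UMIs need not mean a lack of expression.

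Over the 16 clusters that were deposited for the control, the summed core level was highest in clusters 12, 9 and 7. Cluster 12, which is led by the odorant-binding gene Obp56d and carries no cell type name here, had 27461 CPM (25672 to 29341) in replicate 1 and 5834 CPM (4808 to 7015) in replicate 2. Cluster 9, in which 11 of 17 tubule markers were at least 2 times higher than elsewhere, had 10956 CPM (9817 to 12191) and 6534 CPM (5708 to 7445). Cluster 7, with 11 of 12 gut markers, had 7151 and 7089 CPM. In replicate 1 these clusters exceeded the rest of the library 15.3, 5.59 and 3.89 times, and in replicate 2 they exceeded it 3.83, 4.36 and 5.07 times. Thus cluster 12 stood above cluster 9 in replicate 1, while in replicate 2 the intervals of these 2 clusters overlapped. The clusters were built from all genes of the same nuclei, the Vha genes among them, so these levels are a description and were not tested.

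**Figure D1:**
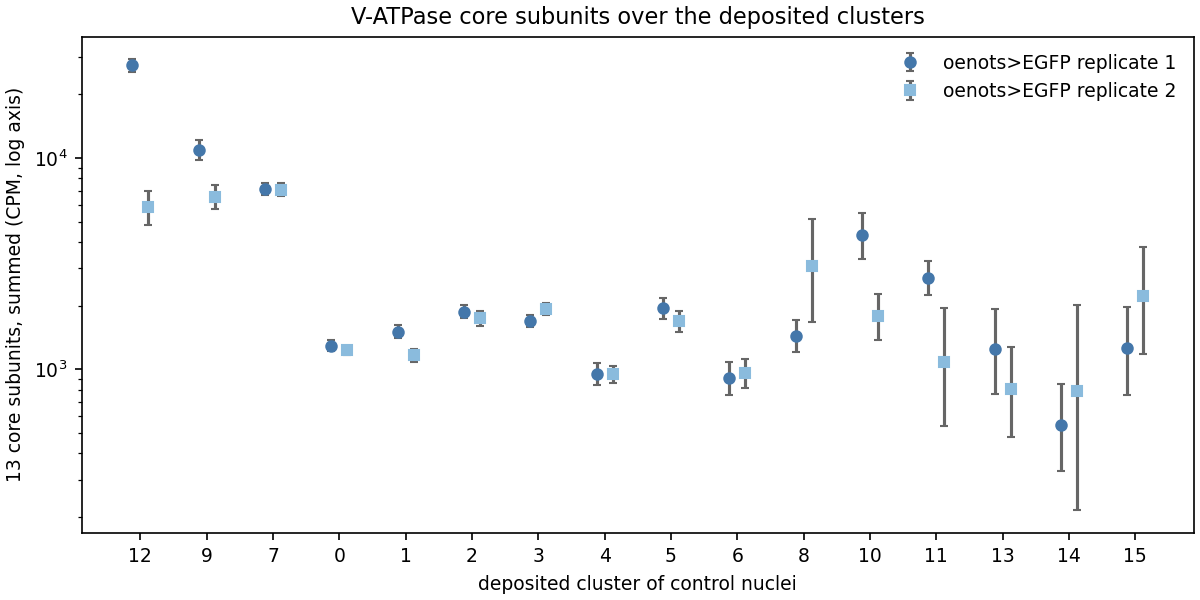
Summed level of the 13 core V-ATPase genes in the deposited control clusters, in CPM on a log axis, with 1 point for each oenots>EGFP library and exact 95% Poisson intervals as bars. Clusters 12, 9 and 7 stand above the others in both libraries, and the 2 libraries differ most in cluster 12, at 27461 against 5834 CPM (replicate 1 against 2).

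The other 13 clusters lay between 546 and 4298 CPM. The main adipose cluster 0 had 1293 and 1230 CPM, the main oenocyte cluster 1 had 1507 and 1163 CPM, and the muscle fibre cluster 5 had 1949 and 1684 CPM. Cluster 10, led by CG16826 and lcs, came next below the first 3 in replicate 1, with 4298 CPM, but had 1778 CPM in replicate 2. Cluster 11, which is led by Elo68alpha and bond, had 2717 CPM (2239 to 3267) in 79 nuclei of replicate 1 and 1083 CPM (541 to 1938) in 22 nuclei of replicate 2. Cluster 14, with 5 of 11 male tract markers, had 546 CPM (329 to 853) in 69 nuclei and 788 CPM (215 to 2017) in 11 nuclei. Cluster 14 was thus the lowest of all in replicate 1, and its interval in replicate 2 overlapped those of most clusters. When each nucleus was thinned to 200 UMIs, a core UMI was found in 68.0% and 44.7% of cluster 12 nuclei, in 69.2% and 47.2% of cluster 9 nuclei and in 59.7% and 42.2% of cluster 7 nuclei (replicates 1 and 2). Without thinning these shares were 72.0% and 63.2%, 80.8% and 62.5%, and 68.2% and 54.7%. In cluster 0 the thinned shares were 17.8% and 17.2%. No cell type is known to lack the pump, so no share in these nuclei could serve as a background level.

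In cluster 12 the core genes were high as a set, most clearly in replicate 1. Each of the 13 core genes was above the rest of its library in both replicates, by 6.54 to 31.2 times over both control libraries together, with a median of 14. Replicate 2 held 113 core UMIs in this cluster, 24 of them of Vha16-1, so single genes rest on few UMIs there. They also rest on few nuclei, since 2 of the 38 nuclei held 60 of the 113 core UMIs. Of these, 1 nucleus alone held 7 UMIs of Vha36-1, 6 of Vha14-1, 2 of Vha55 and 0 of Vha68-2. How many of all genes were above the rest in both libraries was not counted. Vha36-1 (chr2R:15541435-15542498), the D subunit of the central stalk, had 1599 and 671 CPM in cluster 12, against 41.9 and 38.4 CPM in the rest of the control. Its partner in that stalk, Vha14-1 (chr2R:15679426-15680084), had 2445 and 774 CPM, against 66.1 and 61.7 CPM. The catalytic A subunit Vha68-2 had 1536 and 258 CPM, against 61.1 and 74.5 CPM, and the nucleotide-binding B subunit Vha55 had 2163 and 516 CPM, against 70.4 and 74.8 CPM. These 4 genes were therefore above the rest in both libraries, and higher in replicate 1.

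The outer stalk and membrane genes of cluster 12 showed the same order of the libraries. The stalk subunits Vha26 (E) and Vha13 (G) had 2006 and 516 CPM and 4357 and 258 CPM in cluster 12, against 71.9 and 61.0 CPM and 166 and 110 CPM in the rest. The ring subunit Vha16-1 (chr2R:6625242-6633090) had 6803 and 1239 CPM, against 817 and 638 CPM, and VhaPPA1-1, the c″ subunit, had 1254 and 207 CPM, against 88.1 and 87.3 CPM. The subunits Vha44 (C), VhaSFD (H), Vha100-2 (a), VhaAC39-1 (d) and VhaM9.7-b (e) exceeded the rest by 6.96 to 14 times over both libraries. VhaAC45, whose protein accompanies the V0 sector, had 1379 and 361 CPM, against 62.0 and 53.0 CPM. The paralogues took almost no part: they gave 8 of 1048 Vha UMIs in cluster 12, or 0.763% (Wilson 95% interval 0.387 to 1.50%).

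**Figure D2:**
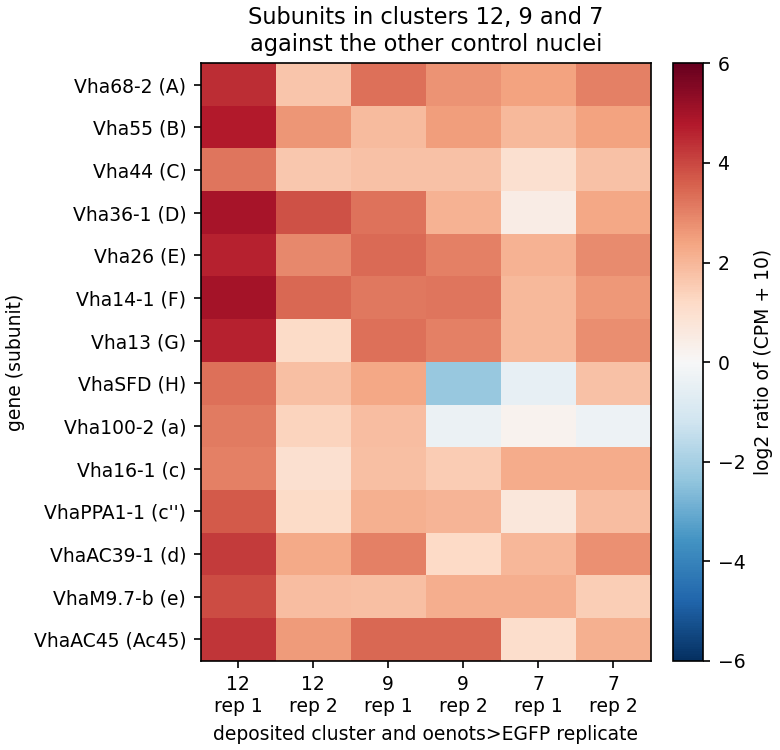
Level of the 13 core V-ATPase genes and VhaAC45 in deposited clusters 12, 9 and 7 of each oenots>EGFP library, drawn as the log2 ratio to the rest of that library after adding 10 CPM to both, with red above and blue below the rest. Every gene is red in both libraries of cluster 12, while VhaSFD and Vha100-2 are blue in 1 library each of clusters 9 and 7.

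The core UMIs of cluster 12 came from few nuclei. In replicate 1, 18 of its 50 nuclei held 10 or more core UMIs and together 801 of the 876 core UMIs, or 91.4%. These nuclei held 13 to 120 core UMIs each, with a median of 9.5 of the 13 core genes detected and a median of 715 UMIs in all, against 455.5 UMIs in the other nuclei. In replicate 2, 2 of 38 nuclei held 60 of 113 core UMIs. Obp56d, the gene that leads the cluster, had a UMI in only 1 of the 18 high nuclei and in 25 of the 32 others of replicate 1, and in none of the 38 nuclei of replicate 2. Over all libraries, 210 of 25141 nuclei held 10 or more core UMIs and 19.1% of all core UMIs, and their median total was 929.5 UMIs against 410 in the others.

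The same split was found in both genotypes. A joint clustering of all 4 libraries, from which the Vha genes were left out, gave a cluster (joint cluster 30) led by Obp56d, CG11550 and Baldspot, which held 46 of the 50 cluster 12 nuclei of control replicate 1 but 1 of the 38 of replicate 2. It had 6862 and 18905 core CPM in oenots>tsc1,tsc2 (90 and 19 nuclei), against 24652 and 61584 CPM in oenots>EGFP (53 nuclei and 1 nucleus). A division of it by whether a nucleus had an Obp56d UMI was chosen after these values had been seen. Nuclei without Obp56d had 16738 CPM (14407 to 19339; 17 nuclei) in oenots>tsc1,tsc2 replicate 1, against 4779 CPM (4203 to 5411; 73 nuclei) in nuclei with it. In oenots>tsc1,tsc2 replicate 2 the values were 37057 CPM (32169 to 42478; 9 nuclei) without and 9945 CPM (8189 to 11966; 10 nuclei) with Obp56d. In oenots>EGFP replicate 1 they were 45993 CPM (42717 to 49454; 25 nuclei) without and 3814 CPM (2924 to 4890; 28 nuclei) with Obp56d, while the 1 nucleus of replicate 2 had no Obp56d.

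The ratio of nuclei without Obp56d to nuclei with it was thus 3.50 and 3.73 in oenots>tsc1,tsc2, and 12.1 in oenots>EGFP replicate 1. Each of the 13 core genes was higher in the nuclei without Obp56d in all 3 libraries. The share of all genes that did so was not counted. Since the division was chosen after the core values were seen, this count describes it and is not a separate result. Vha13 had 3730 and 8275 CPM in the oenots>tsc1,tsc2 nuclei without Obp56d and 441 and 1953 CPM in those with it, and in oenots>EGFP replicate 1 it had 7245 CPM without and 615 CPM with Obp56d. Some of the other genes looked at divided along the same line. Nha2 and CAH1 did so in oenots>tsc1,tsc2 replicate 2 and oenots>EGFP replicate 1. Yet in oenots>tsc1,tsc2 replicate 1 they had 2 UMIs each, all in nuclei with Obp56d. Without Obp56d, the sodium/proton exchanger gene Nha1 had 455 and 2339 CPM (5 and 13 UMIs) in oenots>tsc1,tsc2 and 3402 CPM (54 UMIs) in oenots>EGFP replicate 1. With Obp56d it had no UMI in any of these libraries. Irk2, an inward rectifier potassium channel gene, had 819, 1619 and 3087 CPM without Obp56d and 76.8, 0 and 246 CPM with it, in the same order of libraries. The Hox gene Abd-B went the other way, with 91.0, 0 and 378 CPM without Obp56d and 3167, 5594 and 6460 CPM with it. ATP6AP2, which encodes another accessory protein of the pump, had 546, 1439 and 2394 CPM without Obp56d and 230, 178 and 0 CPM with it.

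**Figure D3:**
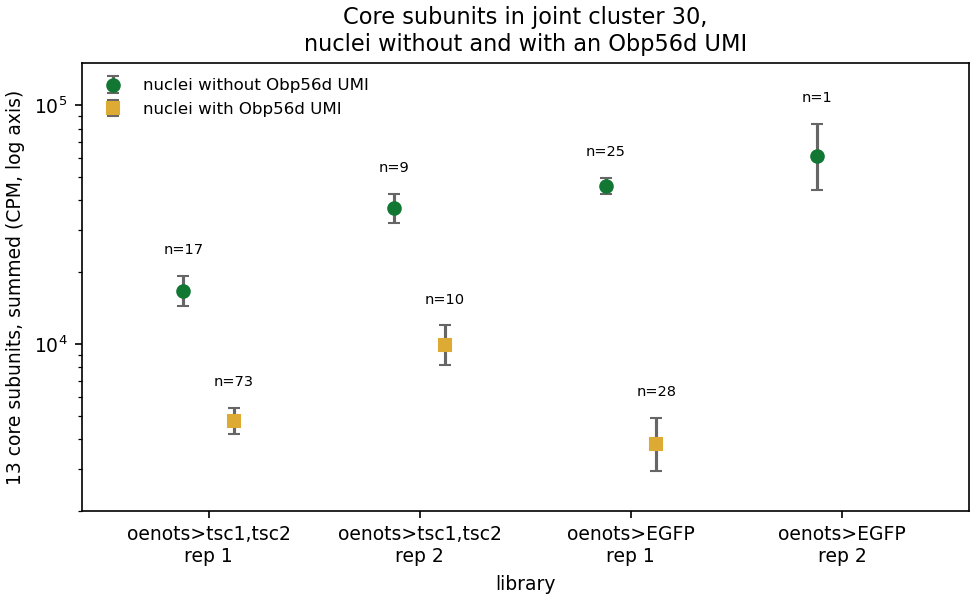
Summed core V-ATPase level of joint cluster 30 in CPM, for nuclei without and with an Obp56d UMI in each library, with exact 95% Poisson intervals. The nuclei without Obp56d lie at 16738 and 37057 CPM in oenots>tsc1,tsc2 and at 45993 CPM in oenots>EGFP replicate 1, above those with Obp56d in each library that holds both kinds.

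Joint cluster 30 was not named from the tubule list, since 4 of 17 tubule markers were at least 2 times higher in it than elsewhere. Nha1 and Irk2 are on that list, and had 3402 and 3087 CPM in its oenots>EGFP replicate 1 nuclei without Obp56d. Of the other markers listed, Uro (urate oxidase), CapaR, Prip, NaPi-T, ZnT35C, Smvt and ClC-a had no UMI in joint cluster 30 in any library. Cluster 9 and joint cluster 31, by contrast, carried Uro, with 99 and 2 UMIs in oenots>tsc1,tsc2 and 70 and 22 UMIs in oenots>EGFP in the joint cluster.

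In the tubule-like cluster 9, 11 of the 13 core genes were above the rest of the control in both libraries, and the 13 genes exceeded it by 2.46 to 10.8 times over both libraries, with a median of 5.16. The share of all genes above the rest in both libraries was not counted for this cluster. Vha26 had the largest ratio, with 975 and 552 CPM against 82.5 and 58.9 CPM in the rest. Vha14-1 had 813 and 639 CPM, against 82.5 and 60.2 CPM, and Vha68-2 had 780 and 523 CPM, against 68.8 and 71.5 CPM. The exceptions were VhaSFD, the regulatory H subunit, with 10 UMIs in replicate 1 and 0 in replicate 2, and Vha100-2, with 12 and 2 UMIs. VhaAC45 had 845 and 639 CPM, against 67.6 and 49.4 CPM. Of the 626 Vha UMIs in this cluster, 2.56% were of paralogues.

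By genotype, joint cluster 31 (12 of 17 tubule markers) had 12236 core CPM (11075 to 13486) and 13783 CPM (10822 to 17303) in oenots>tsc1,tsc2, against 9955 CPM (8937 to 11058) and 12285 CPM (10664 to 14082) in oenots>EGFP. These sums came from 57 and 12 nuclei and from 61 and 31 nuclei, and the intervals of the genotypes overlapped. Vha26 had 1115 and 745 CPM in oenots>tsc1,tsc2 tubule-like nuclei, against 915 and 1372 CPM in oenots>EGFP, so its levels overlapped. In control replicate 2, 30 of the 72 cluster 9 nuclei fell into joint cluster 31, while in replicate 1 it took 51 of 52. The level of replicate 2 accordingly depended on which nuclei were counted, at 6534 CPM over cluster 9 and 12285 CPM over joint cluster 31. The 2 gut-like joint clusters (26 and 27) had 11361 and 8094 CPM in oenots>tsc1,tsc2 replicate 1, against 7297 and 6934 CPM in oenots>EGFP replicate 1 and 12925 and 9713 CPM in oenots>EGFP replicate 2. Only 5 gut-like nuclei were present in oenots>tsc1,tsc2 replicate 2.

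In the gut-like cluster 7, 11 of the 13 core genes were above the rest in both control libraries, with a median of 4.86 times over both. The share of all genes above the rest was not counted here either. The exceptions were VhaSFD, with 39.8 and 141 CPM against 61.0 and 34.8 CPM, and Vha100-2, with 119 and 60.5 CPM against 102 and 76.9 CPM. A second a-subunit gene, Vha100-5 (chr2L:11738948-11744524), had 207 CPM (135 to 303) and 232 CPM (147 to 348) in cluster 7, against 14.1 and 10.7 CPM in the rest. Its 49 UMIs there were 36.6% of all its control UMIs. Subunit a decides which membrane a pump is sent to in yeast and mammals, and it was the only subunit for which a paralogue reached 10 UMIs in cluster 7.

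Clusters 11, 13 and 14 held too few Vha UMIs for single genes: Vha16-1 alone reached 10 UMIs over both libraries. It had 1467 and 591 CPM in cluster 11, 561 and 178 CPM in cluster 13, and 288 and 0 CPM in cluster 14, against 868 to 882 CPM in the rest of replicate 1 and 641 to 644 CPM in the rest of replicate 2. Cluster 13, with 9 of 12 spermatogenesis markers, differed in which copies it used. Paralogues gave 32 of its 70 Vha UMIs, or 45.7% (34.6 to 57.3%), with 47.4% in replicate 1 and 43.8% in replicate 2. In clusters 0 to 6 they gave 8.0 to 13.7%. In cluster 13 the most frequent were Vha100-3, an a-subunit gene, with 3 and 3 UMIs, Vha100-1 with 1 and 4, and Vha16-2, a c-subunit gene, with 4 and 1. Of the 13 control UMIs of Vha100-3, cluster 13 held 6, or 46.2%. In cluster 14, 9 of 37 Vha UMIs were of paralogues, all in replicate 1.

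The make-up of the core UMIs also varied. Vha16-1, whose protein forms the ring in several copies per pump, gave 38.7% of all core UMIs. Its share was 67.8% and 55.3% in the adipose cluster 0 and 61.8% and 59.8% in the oenocyte cluster 1, against 24.8% and 21.2% in cluster 12, 27.3% and 28.4% in cluster 9, and 23.3% and 22.9% in the muscle cluster 5. The gut-like cluster 7 lay between, with 50.7% and 38.8%. The same order was found in the joint classes of both genotypes: 46.5% and 43.3% in oenots>tsc1,tsc2 oenocytes and 56.8% and 55.4% in oenots>EGFP oenocytes, but 15.0% and 25.7% in oenots>tsc1,tsc2 muscle and 19.1% and 20.5% in oenots>EGFP muscle. These are shares of captured UMIs and not of protein, and genes of unequal length and intron content are captured unequally, so only the change of a share between clusters can be read.

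To compare the major tissues, nuclei of the joint clusters were summed per library into oenocytes, adipose tissue, muscle fibres and epidermis, and each class of the control was set against the mean of the other 3 with edgeR's quasi-likelihood test (2 sums per class, 6529 genes). Joint cluster 11, the largest of the muscle fibre class with 906 nuclei, had 11 of 16 muscle markers at least 2 times higher than elsewhere. It also had 4 of 9 epidermis markers so, and the part of such mixing in the class differences was not tested. The Vha genes took no part in the joint clustering, and 17 of the 32 passed the filter on low counts: the 13 core genes, VhaAC45, Vha68-1, Vha36-3 and Vha100-1. Muscle fibres had the most of them above the other classes in these sums, though not with the deposited clusters as classes (below). Here 9 of 17 were higher in muscle fibres (13.6% of all genes tested) and 1 lower (8.58%). Oenocytes had 0 higher (14.9% of all genes) and 6 lower (15.5%). Adipose tissue had 2 higher (20.8%) and 7 lower (17.6%), and epidermis had 3 higher (10.3%) and 0 lower (7.84%). The median log2 difference of the 17 genes was 1.07 in muscle fibres, -0.88 in oenocytes, -0.88 in adipose tissue and 0.39 in epidermis, beside -0.04, -0.02, -0.02 and -0.12 over all genes.

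In muscle fibres the clearest gene was Vha36-3 (chrX:2579091-2580560), a paralogue for the D subunit of the central stalk. It had 115 and 129 CPM in muscle fibres, against 19.8 and 4.81 CPM in oenocytes, 10.6 and 6.36 CPM in adipose tissue and 16.5 and 31.9 CPM in epidermis. The muscle values exceeded all the others, with a log2 difference of 3.23 (SE 0.39; edgeR, adjusted p = 0.000195). Over the deposited clusters it was likewise highest in muscle cluster 5, with 119 and 181 CPM against 20.6 and 11.2 CPM in the rest. The core D subunit gene Vha36-1, in contrast, had 26.2 and 42.0 CPM in muscle fibres and did not pass the test (log2 difference 0.14, SE 0.37; edgeR, adjusted p = 0.846). The other 8 genes higher in muscle fibres were Vha55, Vha26, Vha14-1, Vha13 and VhaSFD of the V1 sector, VhaM9.7-b of V0, VhaAC45 and the A-subunit paralogue Vha68-1, by 1.07 to 1.79 on the log2 scale. VhaM9.7-b had 183 and 136 CPM there, against 33.4 and 19.6 CPM in adipose tissue, and its muscle difference was 1.52 (SE 0.29; edgeR, adjusted p = 0.00363). Vha14-1 and Vha68-1 rested on libraries that differed, with 52.4 and 187 CPM for Vha14-1 and 78.5 and 22.6 CPM for Vha68-1 in muscle fibres, and leaving out a control library moved their log2 differences between 0.34 and 2.06 and between 0.44 and 2.73. The gene lower in muscle fibres was Vha16-1, with 308 and 339 CPM, against 789 and 627 CPM in oenocytes and 841 and 650 CPM in adipose tissue (log2 difference -0.91, SE 0.28; edgeR, adjusted p = 0.0431).

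In epidermis the core D gene was among those above the other classes: Vha36-1 had 66.0 and 119 CPM in epidermis and a log2 difference of 1.77 (SE 0.33; edgeR, adjusted p = 0.00350). Vha68-2, the A subunit, had 103 and 182 CPM there (log2 difference 1.58), against 21.3 and 27.6 CPM in oenocytes, and VhaM9.7-b had 120 and 164 CPM (log2 difference 1.02). In adipose tissue the genes above the other classes were Vha100-1 (chr3R:29131193-29137980), an a-subunit gene known from synapses, and Vha44, the C subunit. Vha100-1 had 132 and 121 CPM in adipose tissue, against 42.5 and 25.8 CPM in muscle fibres (log2 difference 1.31, SE 0.37; edgeR, adjusted p = 0.0162), but it had 114 CPM in oenocytes of replicate 1 and 38.5 CPM in those of replicate 2. The 7 genes below the other classes in adipose tissue included Vha100-2, the core gene for the same subunit, with 53.2 and 54.1 CPM (log2 difference -1.12, SE 0.26; edgeR, adjusted p = 0.00570). The others were Vha36-3, Vha55, Vha26, Vha14-1, Vha13 and VhaM9.7-b, by -1.96 to -1.05. In oenocytes Vha68-1, Vha68-2, VhaSFD, VhaPPA1-1, VhaAC45 and Vha44 were lower, by -1.81 to -0.95. Leaving out a control library moved the oenocyte difference of Vha68-1 between -2.63 and -1.10, and that of VhaAC45 was -1.83 without replicate 2, in place of -1.24.

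Both control libraries gave every class, so the library pairs the sums. With the library as a block, 12 of 17 Vha genes passed in oenocytes (39.6% of all genes tested), 12 in adipose tissue (47.7%), 12 in muscle fibres (29.3%) and 5 in epidermis (24.2%), and Vha16-1 was then higher in oenocytes (log2 difference 0.68; edgeR, adjusted p = 0.0129) and in adipose tissue (0.68; edgeR, adjusted p = 0.0100). With the deposited clusters as classes the counts were 8 in oenocytes (29.0% of all genes), 6 in adipose tissue (31.1%), 4 in muscle fibres (8.78%) and 5 in epidermis (22.7%). All 4 in muscle fibres (Vha14-1, Vha26, Vha36-3 and Vha68-1) and all 5 in epidermis were higher. Epidermis thus had the most there, and VhaM9.7-b was not called in muscle fibres. The deposited epidermis cluster 3 had 8 of 16 muscle markers at least 2 times higher, beside 6 of 9 epidermis markers. Across the 17 Vha genes the Spearman correlation of the length spanned on the genome with the log2 difference was 0.20 in oenocytes, 0.59 in adipose tissue, -0.50 in muscle fibres and -0.61 in epidermis, against 0.10, 0.20, -0.18 and -0.30 across 6109 other genes. Genes are not independent replicates, so these correlations are a description, and the part of gene length in the class differences was not tested.

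**Figure D4:**
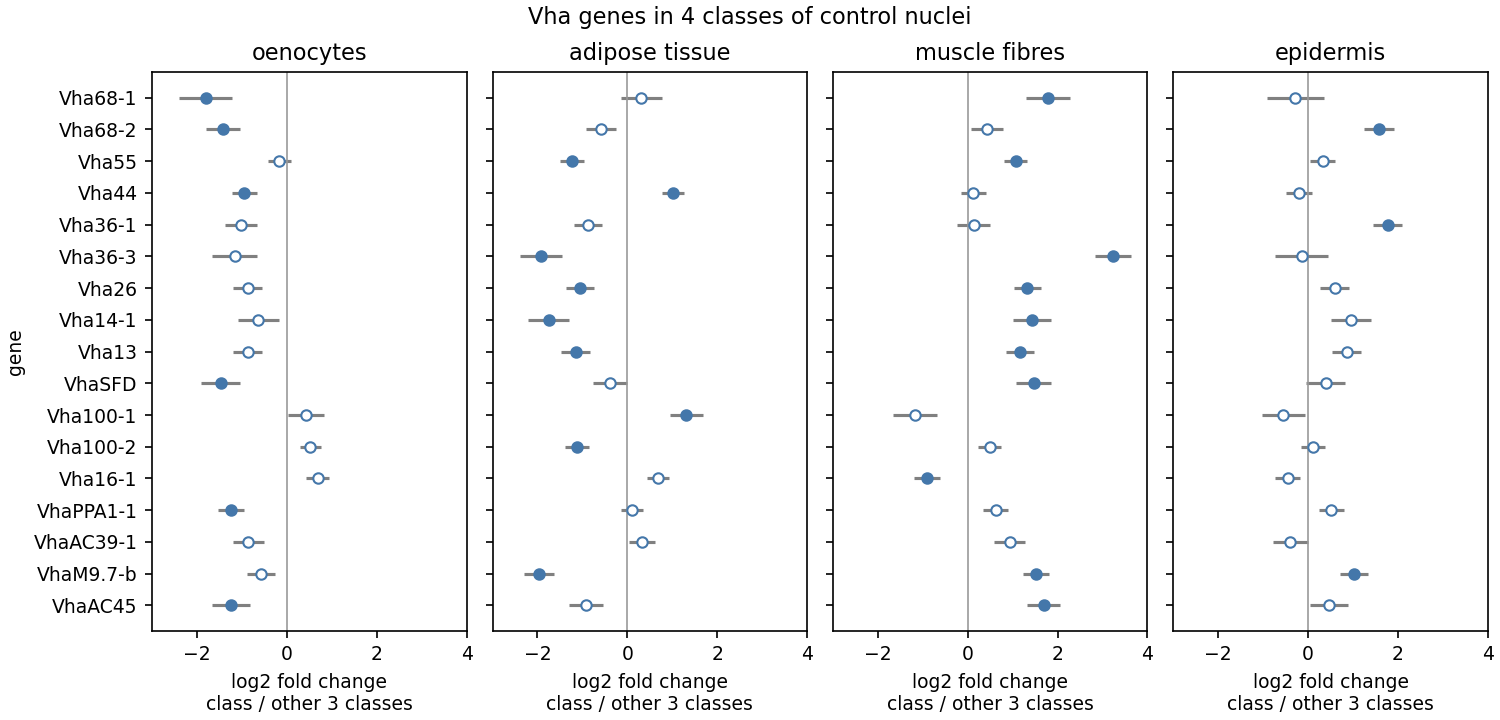
Log2 difference of each tested V-ATPase gene between a class and the mean of the other 3 classes in the control, with bars of 1 SE and filled points where the adjusted p was under 0.05. Muscle fibres lie to the right for most genes, with Vha36-3 at 3.23, and to the left for Vha16-1 at -0.91.

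The comparison of genotypes asks how the pump's genes stood when Tsc1 and Tsc2, which together restrain TOR, were overexpressed in oenocytes. The study describes the 2 genotypes as 2 data sets, which it joined after correcting for batch effects. The counts summed here carry no such correction, so genotype and data set cannot be told apart in any class. No Vha gene passed the test in any of the 4 classes. In oenocytes 0 of 16 tested Vha genes passed at an adjusted p of 0.05, where 3.68% of 6340 genes did, and 1 of 16 passed at an unadjusted p of 0.05, where 18.0% of genes did. In adipose tissue 0 of 17 passed (0% of 7489 genes) and 2 had an unadjusted p under 0.05 (9.05% of genes). In muscle fibres 0 of 17 passed (0.460% of 4131 genes) and 1 had an unadjusted p under 0.05 (6.46%), and in epidermis 0 of 15 passed (0.0820% of 3660 genes) and 2 did so unadjusted (7.46%). DESeq2 called 1 Vha gene in oenocytes (14.5% of the genes it gave an adjusted p) and 1 in adipose tissue (1.81%), and none in muscle fibres (1.21%) or epidermis (0.246%).

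The median log2 difference of the tested Vha genes was -0.19 in oenocytes, 0.12 in adipose tissue, 0.30 in muscle fibres and 0.44 in epidermis, beside 0.01, -0.02, 0.01 and 0.00 over all genes. The summed core level was 1262 and 1012 CPM in oenots>tsc1,tsc2 oenocytes, against 1390 and 1132 CPM in oenots>EGFP oenocytes. In adipose tissue it was 1273 and 988 CPM in oenots>tsc1,tsc2 against 1418 and 1325 CPM in oenots>EGFP, and in muscle fibres 1804 and 1866 CPM in oenots>tsc1,tsc2 against 1613 and 1654 CPM in oenots>EGFP. In epidermis it was 2185 and 2050 CPM in oenots>tsc1,tsc2 against 1556 and 1975 CPM in oenots>EGFP. The sums overlapped in oenocytes and did not in the other 3 classes, being lower in oenots>tsc1,tsc2 adipose tissue and higher in oenots>tsc1,tsc2 muscle fibres and epidermis, and they were not tested. Without Vha16-1, the most abundant member, the adipose sums overlapped, with 671 and 455 CPM in oenots>tsc1,tsc2 against 577 and 675 CPM in oenots>EGFP, and so did those of epidermis, with 1636 and 1218 CPM in oenots>tsc1,tsc2 against 1213 and 1373 CPM in oenots>EGFP. In muscle fibres they still did not, with 1533 and 1387 CPM in oenots>tsc1,tsc2 against 1306 and 1315 CPM in oenots>EGFP. In oenocytes and adipose tissue the genotypes filled different joint clusters of the class: clusters 4 and 15 held most oenots>tsc1,tsc2 oenocytes and clusters 3, 12, 17 and 20 most control ones, while clusters 6 and 9 (replicate 1) and 16 (replicate 2) held most oenots>tsc1,tsc2 adipose nuclei and clusters 0, 1, 2, 7 and 18 most control ones. Muscle fibres (clusters 11, 13 and 22) and epidermis (10 and 14) were shared. The part of this composition in the differences was not tested.

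Vha26 (chr3R:5591763-5595356), the E subunit of the outer stalks, was the Vha gene with the lowest or next lowest p in each of the 4 classes. In oenocytes it had 58.5 and 214 CPM in oenots>tsc1,tsc2, against 22.8 and 42.1 CPM in oenots>EGFP (log2 difference 2.02, SE 0.71; edgeR, adjusted p = 0.180). The groups did not overlap, but the oenots>tsc1,tsc2 libraries differed more from each other than the controls did, with 136 ± 110 CPM in oenots>tsc1,tsc2 and 32.4 ± 13.6 CPM in oenots>EGFP (SD, n = 2 each). Leaving out 1 library moved the log2 difference in oenocytes between 0.56 and 2.77, and DESeq2 and the fit with no filter on low counts called the gene there, as did the fits without oenots>EGFP replicate 2 and without oenots>tsc1,tsc2 replicate 1. In muscle fibres it had 211 and 212 CPM in oenots>tsc1,tsc2, against 98.2 and 120 CPM in oenots>EGFP (log2 difference 1.08, SE 0.45; edgeR, adjusted p = 0.603). In adipose tissue it had 58.0 and 62.9 CPM in oenots>tsc1,tsc2 against 27.4 and 36.6 CPM in oenots>EGFP (0.82, SE 0.34; edgeR, adjusted p = 0.546). In epidermis it had 145 and 196 CPM in oenots>tsc1,tsc2 against 90.8 and 77.6 CPM in oenots>EGFP (1.10, SE 0.46; edgeR, adjusted p = 0.656). Both oenots>tsc1,tsc2 libraries were thus above both controls in each class, without passing the test as planned. The classes come from the same 4 libraries and are not independent of each other: over all nuclei Vha26 had 142 and 177 CPM in oenots>tsc1,tsc2, against 90.9 and 63.2 CPM in oenots>EGFP.

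**Figure D5:**
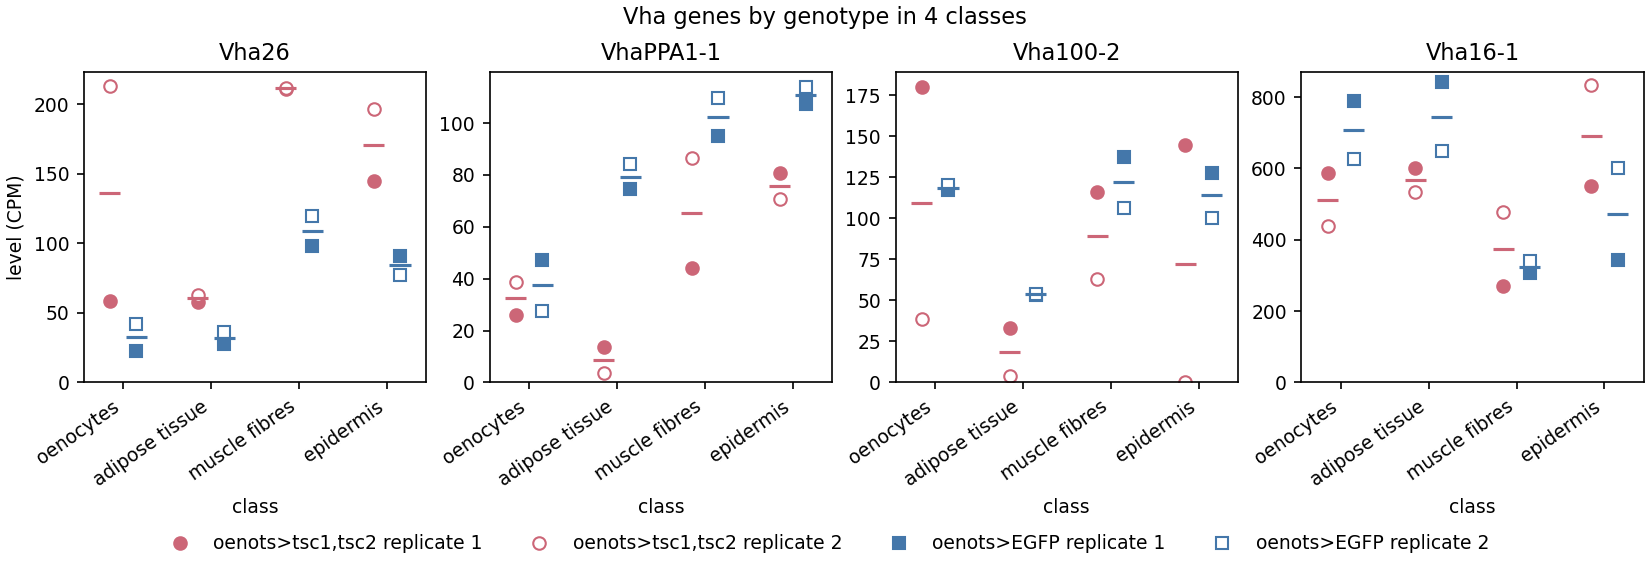
Levels of Vha26, VhaPPA1-1, Vha100-2 and Vha16-1 in CPM in 4 classes, with a point for each oenots>tsc1,tsc2 library (circles) and each oenots>EGFP library (squares), replicate 1 filled and replicate 2 open, and a line at the mean of each genotype. Vha26 is above the controls in both oenots>tsc1,tsc2 libraries of each class, and VhaPPA1-1 is lowest in oenots>tsc1,tsc2 adipose tissue, at 13.5 and 3.70 CPM against 74.5 and 84.3 CPM in oenots>EGFP.

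VhaPPA1-1 (chr3R:14902330-14904061), the c″ subunit of the ring, showed the opposite direction in adipose tissue. It had 13.5 and 3.70 CPM in oenots>tsc1,tsc2, from 17 UMIs and 1 UMI, against 74.5 and 84.3 CPM in oenots>EGFP, from 98 and 159 UMIs (log2 difference -2.98, SE 0.45; edgeR, adjusted p = 0.185). The groups lay far apart, and the gene did not pass the test as planned. DESeq2 and the fit with no filter on low counts called it, as did the fit without oenots>EGFP replicate 1, and leaving out 1 library moved its log2 difference between -4.35 and -2.70. In muscle fibres it had 44.0 and 86.4 CPM in oenots>tsc1,tsc2 against 94.9 and 110 CPM in oenots>EGFP, and in epidermis 80.9 and 70.7 CPM in oenots>tsc1,tsc2 against 107 and 114 CPM in oenots>EGFP. In oenocytes, where the transgenes act, its levels overlapped, with 26.2 and 38.8 CPM in oenots>tsc1,tsc2 and 47.1 and 27.6 CPM in oenots>EGFP. Over all nuclei it had 44.6 and 53.1 CPM in oenots>tsc1,tsc2, against 99.5 and 87.9 CPM in oenots>EGFP.

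The remaining genes named for their low p were less far apart. In oenocytes Vha16-1 had 586 and 438 CPM in oenots>tsc1,tsc2, against 789 and 627 CPM in oenots>EGFP (log2 difference -0.55, SE 0.33; edgeR, adjusted p = 0.467). Vha14-1 had 30.8 and 11.1 CPM in oenots>tsc1,tsc2 oenocytes, against 45.6 and 32.5 CPM in oenots>EGFP oenocytes (-0.92, SE 0.50; edgeR, adjusted p = 0.407). Neither gene's groups overlapped, and neither passed the test. In muscle fibres Vha100-1 had 64.9 and 51.1 CPM in oenots>tsc1,tsc2, against 42.5 and 25.8 CPM in oenots>EGFP (0.89, SE 0.49; edgeR, adjusted p = 0.882), and VhaAC45 had 153 and 177 CPM in oenots>tsc1,tsc2 against 78.5 and 152 CPM in oenots>EGFP (0.64, SE 0.47; edgeR, adjusted p = 0.927). VhaAC39-1, the d subunit that joins the stalk to the ring, had 19.9 and 25.9 CPM in oenots>tsc1,tsc2 adipose tissue, against 30.4 and 53.5 CPM in oenots>EGFP (-1.03, SE 0.44; edgeR, adjusted p = 0.560). In epidermis it had 59.6 and 118 CPM in oenots>tsc1,tsc2, against 33.0 and 31.9 CPM in oenots>EGFP (1.45, SE 0.56; edgeR, adjusted p = 0.618). Vha16-1 in epidermis overlapped between genotypes, with 549 and 833 CPM in oenots>tsc1,tsc2 and 342 and 602 CPM in oenots>EGFP.

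The a-subunit gene Vha100-2 was below both controls in oenots>tsc1,tsc2 replicate 2 of each of the 4 classes, and in replicate 1 in adipose tissue only. Its levels were 180 and 38.8 CPM in oenots>tsc1,tsc2 oenocytes, against 117 and 120 CPM in oenots>EGFP oenocytes. In adipose tissue it had 33.4 and 3.70 CPM in oenots>tsc1,tsc2 against 53.2 and 54.1 CPM in oenots>EGFP. In muscle fibres it had 116 and 62.8 CPM in oenots>tsc1,tsc2 against 137 and 107 CPM in oenots>EGFP, and in epidermis 145 and 0 CPM in oenots>tsc1,tsc2 against 128 and 100.4 CPM in oenots>EGFP. None of these differences passed the test. Over all nuclei it had 91.6 and 32.4 CPM in oenots>tsc1,tsc2, against 103 and 76.5 CPM in oenots>EGFP. The oenots>tsc1,tsc2 library 2 had the fewest nuclei.

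Other genes of the pathway were counted from 4 lists. The tubule transporters, the channels, exchangers and pumps that work beside the V-ATPase in the tubule, were above the rest of the control in both libraries for 6 of 13 genes in cluster 12, 5 in cluster 9 and 6 in cluster 7, with median ratios of 4.47, 1.63 and 1.14. The clusters differed in which genes these were. Nha1 had 1850 and 103 CPM in cluster 12, against 18.0 and 5.38 CPM in the rest, but 32.5 and 0 CPM in cluster 9. The potassium channel genes Irk1 and Irk3 had 585 and 232 CPM and 780 and 261 CPM in cluster 9, against 13.6 and 14.1 CPM and 6.82 and 17.2 CPM in the rest. Lysosomal proteins were above the rest in both libraries for 1 of 10 genes in cluster 12, 2 in cluster 9 and 1 in cluster 7, with median ratios of 0.631, 0.627 and 0.764. The genes of the Rag and Ragulator proteins, which hold TOR at the lysosome, and of Rheb, which activates TOR, had 1 of 6 above the rest in each of these clusters. The assembly genes, which include the RAVE-like Rbcn-3A and Rbcn-3B and the transcription factor gene Mitf, had 1 of 5, 2 of 5 and 1 of 5. Some listed genes had no UMI in the control and could not be above the rest. They were Rbcn-3B and CG7071 of the assembly list, CG5189 of the TOR list and Trpml of the lysosomal list. Median ratios leave such genes out, and the share of all genes above the rest was not counted.

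By genotype 1 of the 25 genes of these lists tested in oenocytes passed, or 4%, beside 3.68% of all genes. It was nrv2, a beta subunit of the sodium pump, which fell in oenocytes to 26.2 and 19.4 CPM in oenots>tsc1,tsc2, against 83.6 and 73.3 CPM in oenots>EGFP (log2 difference -1.85, SE 0.40; edgeR, adjusted p = 0.0490). None of the 9 lysosomal, 5 TOR scaffold and 3 assembly genes tested in oenocytes passed, with median log2 differences of -0.46, 0.15 and -0.58 beside 0.01 over all genes. In adipose tissue, muscle fibres and epidermis no gene of the 4 lists passed.

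Across the 16 deposited clusters, the genes whose level was most like the summed core level were axo (Pearson r 0.91), Eip63F-1 (0.83), CG4928 (0.81), sick (0.78) and CG3655 (0.78), among 4910 genes with at least 200 control UMIs. CG4928 had 533 and 10 UMIs in cluster 12 and 545 and 298 UMIs in cluster 9. For the core genes themselves r with their own sum ran between 0.52 (VhaSFD) and 0.90 (Vha14-1). The clusters are the points, they share their libraries, and the 3 high clusters weigh most, so these values are a description.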

How the data were processed

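Nuclei of 4 libraries were prepared with 10x Genomics 3′ v2 chemistry. The authors aligned reads with Cell Ranger 3.1.0 to a pre-mRNA reference, removed free RNA with SoupX, left out nuclei of extreme totals, and clustered with Seurat 3.1.2 and Harmony. The deposited values are whole-number UMI counts per gene and nucleus, after that removal, with 254 to 3006 UMIs per nucleus. The deposited metadata gives clusters 0 to 15 for the control libraries.

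Members, core set, gene lists and tests were chosen with earlier results of these data known. All 4 libraries were clustered without Vha genes (2000 variable genes, 30 components, 20 neighbours, Leiden resolution 2, leidenalg 0.10.2), with no doublet caller. The resolution was chosen because it separated muscle-led from cuticle-led nuclei. A cluster was named when at least 3 markers, and at least 1 in 3 of a list, were 2 times higher than elsewhere after adding 10 CPM; the last condition was added after one cluster's markers had been seen. Counts were summed per library and class and tested with edgeR 4.0.16 (quasi-likelihood, TMM, filterByExpr, Benjamini-Hochberg adjustment over all genes) in R 4.3.3. Alternatives were DESeq2 1.42.0, library totals, other filters, blocks, other class assignments and each library left out.

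Members were named with at least 10 UMIs in deposited cluster 9, 11, 12, 13 or 14 (cluster 7 was added for its level), by an adjusted p under 0.05 in a class or genotype test, or as the 3 lowest p per class for genotype. Vha100-2 by genotype, Vha100-5, the Vha36-3 levels by cluster and the Obp56d division were added after their values were seen. Replicate numbers follow accession order, so they were not taken to pair libraries between genotypes. Within the control, class sums of 1 library come from the same flies, and their deviations correlated with r of 0.278 to 0.591 over 6529 genes. P-values measure the spread between libraries labelled as separate. In sums over a class, fewer cells of a kind and less RNA per cell cannot be told apart. The edgeR fits were tested on simulated data.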

Additional observations from a re-analysis of the deposited data

Results flagged for a closer look

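VhaAC39-1 stood out because its genotype difference ran in opposite directions in different tissues, with no overlap of the libraries in either. A lack of overlap was common, with 8 of 17 tested Vha genes in adipose tissue, 6 of 17 in muscle fibres, 4 of 15 in epidermis and 6 of 16 in oenocytes. Its share over all genes was not counted. The log2 difference in adipose tissue minus that in muscle fibres was -1.61, with 19.9 and 25.9 CPM in oenots>tsc1,tsc2 adipose tissue against 30.4 and 53.5 CPM in oenots>EGFP, and 88.0 and 66.8 CPM in oenots>tsc1,tsc2 muscle fibres against 49.1 and 64.6 CPM in oenots>EGFP. The log2 difference in adipose tissue minus that in epidermis was -2.48. Neither difference between tissues was tested, and with nuclei assigned through the deposited clusters the adipose direction turned.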

How the results depend on the processing

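By genotype, 1 Vha gene was called in place of 0 in oenocytes under DESeq2, under no filter on low counts and under the replicate block, and in each case it was Vha26 (edgeR or DESeq2, adjusted p = 0.0382, 0.00100 and 0.00610), beside 14.5% (of genes given an adjusted p), 6.11% and 10.8% of all genes. In adipose tissue 1 was called in place of 0 under the same 3 alternatives, and it was VhaPPA1-1 (adjusted p = 0.00723, 6.2e-07 and 0.00241), beside 1.81%, 1.97% and 1.91% counted likewise. Leaving out each library in turn gave 0 to 1 calls in oenocytes (Vha26, without oenots>EGFP replicate 2 or oenots>tsc1,tsc2 replicate 1, beside 3.87% and 4.98% of all genes), 0 to 1 in adipose tissue (VhaPPA1-1, without oenots>EGFP replicate 1, beside 1.28%), 0 to 1 in epidermis (Vha100-2, without oenots>tsc1,tsc2 replicate 1, beside 2.13%) and 0 in muscle fibres. Where 1 library was left in a genotype, its spread was taken to be that of the other. The replicate block changed no other genotype call of a Vha gene. Libraries of the 2 genotypes share only a number: deviations of same-numbered libraries correlated with r of 0.0884 to 0.286 over genes, and over all genes the block gave 683 calls in oenocytes in place of 233 and 143 in adipose tissue in place of 0. The genotype difference of VhaAC39-1 in adipose tissue was 0.18 with nuclei assigned through the deposited clusters, in place of -1.03. The cause of these changes was not tested.

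In the control, the library as replicate block gave 12 calls in oenocytes and 5 in epidermis, in place of 6 and 3, while calls over all genes went up too, to 2588 in oenocytes and 1578 in epidermis, in place of 1982 and 1183. The deposited clusters gave 4 in muscle fibres and 5 in epidermis, in place of 10 and 3, with 616 and 1594 over all genes, in place of 1448 and 1183. The core level relative to the rest of the control, averaged over libraries, was 9.58 in cluster 12 (3.83 to 15.3 leaving out each library), 4.98 in cluster 9 (4.36 to 5.59) and 4.48 in cluster 7 (3.89 to 5.07). For named genes, 145 class results with a test kept their direction and side of the threshold and 15 lost the call, and 113 genotype results kept both, 9 gained a call and 1 turned. With 1 control library left the class fits had no test, and their 56 values kept their direction, 35 of them within 1 SE of the difference from both libraries; 3 genotype results had no adjusted p under DESeq2. Genes called over all genes ranged between 149 and 687 in oenocytes by genotype (233 as planned), 0 and 228 in adipose tissue (0), 3 and 141 in muscle fibres (19) and 3 and 86 in epidermis (3), and for classes between 1127 and 2588 in oenocytes (1982), 1345 and 3112 in adipose tissue (2510), 616 and 1912 in muscle fibres (1448) and 950 and 1594 in epidermis (1183). The VhaPPA1-1 levels in adipose tissue rest on 1 to 159 UMIs a library.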
